A study of Mus musculus with 14 samples.

Results

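Cells that carried wild type p65 were compared with cells that carried the empty vector pTV, both after 3 h of TNFα, on 6 of the 14 one-colour Agilent arrays of the series. The arrays were chosen by their labels alone, 3 of wild type p65 at 3 h and 3 of pTV at 3 h. All cells of the study were mouse embryonic fibroblasts (MEFs) of the genotype p65-/-, a 3T3 line that lacks the p65 gene product. They had been infected with lentivirus made from a pTV plasmid with myc-tagged wild type p65 in the one line and from the plasmid without an insert in the other, and blasticidin selected the infected cells. Both lines were starved overnight and then given 30 ng/ml mouse TNFα for 3 h, and RNA was isolated on different days from 3 biological replicates. The wild type line was also measured without TNFα (0 h, 3 arrays), and the other 5 arrays hold lines with mutant p65. The pTV line was measured only after TNFα. A difference between the lines at 3 h therefore joins what differed before TNFα and what TNFα changed, and those cannot be told apart for pTV. Each line was 1 infected and selected population, so that p-values measure the spread between cultures and not that between separately infected populations. The spread between cultures was estimated from all 14 arrays, those of mutant p65 included. Wild type arrays always lay at 1 position of a slide and pTV arrays at another, and position and line cannot be told apart either.

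p65, encoded by Rela, is the NF-κB subunit with the strongest transactivation domain. It is held in the cytoplasm by IκB proteins until TNF receptor signalling activates the IKK kinases, which mark IκB for destruction. In fibroblasts the freed p65:p50 dimer enters the nucleus and raises genes for chemokines, cytokines, adhesion molecules and survival factors, and also for the inhibitors that end the response. Some of the other dimers, such as those of RelB, c-Rel and p50, can form without p65.

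Levels are given as the log2 of the background-corrected signal of a probe minus that of the 75th percentile of its array, so that 0 is the level of the 75th percentile and 1 unit is a doubling. A probe was called higher or lower at a fold over 2 between the lines and an adjusted p under 0.05 in limma, from 1 fit of all 14 arrays with Benjamini-Hochberg adjustment over the 22172 probes tested. Of these, 795 were called higher in wild type cells (3.59%) and 323 lower (1.46%), 5.04% of the probes tested in all. The higher calls carried 563 gene symbols and the lower calls 240. The directions differed in size. Where all 6 arrays gave a signal above background, the 481 higher ones had a median log2 fold change of 1.52 and the 231 lower ones of −1.24, where the median of all tested probes was −0.03. A change of over 8-fold was seen at 156 higher probes and at 8 lower ones. Of the higher probes 199 were above background on no pTV array, and of the lower probes 43 on no wild type array, so that only a lower bound of their fold is known. A lower level can come from fewer expressing cells or from less RNA per cell, which cannot be told apart in such arrays. Each slide held both lines, and 640 of the 792 higher probes with a value on every array and 203 of the 323 lower ones differed by over 2-fold on each of the 3 slides. Across probes, which are not independent, arrays of wild type cells correlated with r of 0.992 to 0.994, arrays of pTV cells with 0.985 to 0.994, and arrays of different lines with 0.964 to 0.975. With the normexp background correction, which adds an offset and shrinks the fold of dim probes, 260 probes were called higher and 66 lower. Of the 535 higher calls lost, 358 had a fold of 2 or less with normexp. The other 177 kept a larger fold, with an adjusted p in limma of 0.05 or more. Brighter probes lost calls too, such as that of decorin (Dcn), at log2 levels of 4.34 to 5.90.

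**Figure D1:**
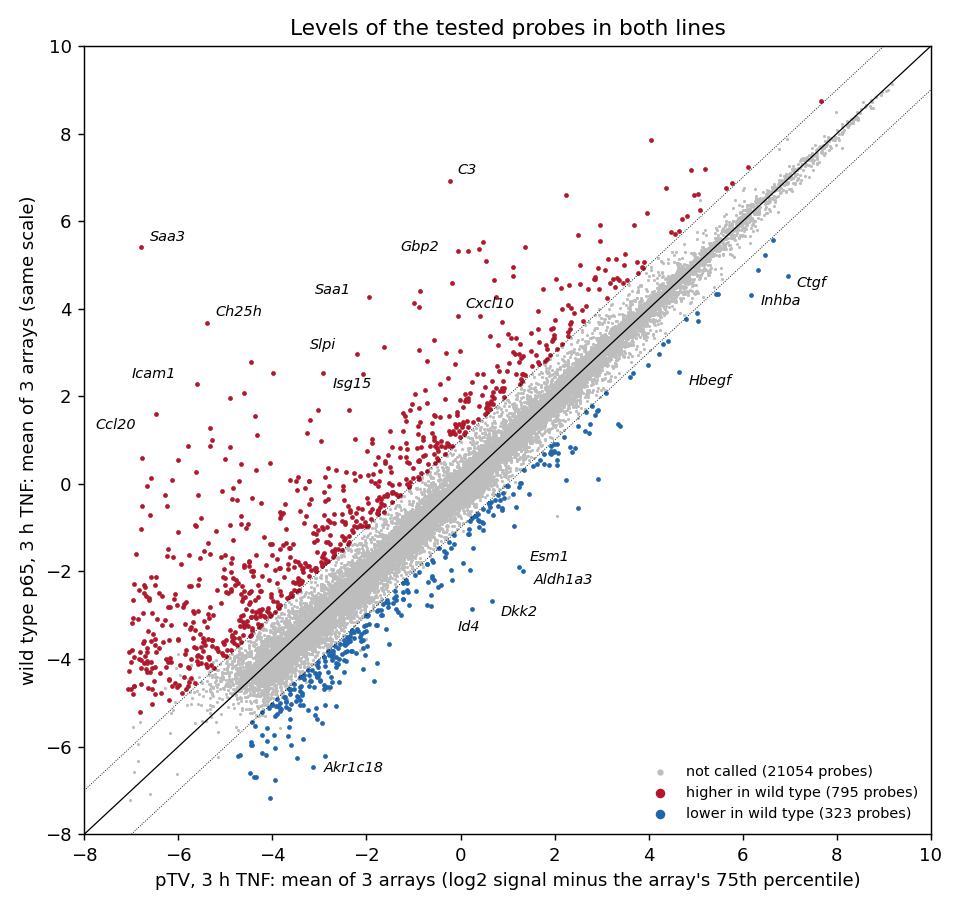
Mean log2 level of each of the 22172 tested probes in pTV cells (horizontal axis) and in wild type p65 cells (vertical axis) after 3 h of TNFα, with 3 arrays in each mean; red and blue points are the 795 higher and 323 lower calls, the solid line marks equal levels and the dotted lines a 2-fold difference. The higher calls reach farther from the line than the lower ones, and many of them lie at the left edge, where pTV cells gave no signal above background.

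Among probes above background on all 6 arrays, the largest difference was that of C3, the central component of complement. Its log2 level was 7.29, 6.77 and 6.70 on the wild type arrays and 0.10, −0.66 and −0.11 on the pTV arrays. The log2 fold change was 7.14 ± 0.22 (SE, n = 3 and 3), an adjusted p in limma of 9.8e-10 and a 141-fold difference. Wild type cells without TNFα had a mean log2 level of C3 of 6.82, within the range of the arrays with TNFα, so that a high level of C3 did not need TNFα in that line. Next to C3 stood Saa1, an acute phase apolipoprotein, and Isg15, the ubiquitin-like protein that interferon induces. Isg15 was at 2.92, 2.88 and 1.76 in wild type cells and at −2.71, −3.27 and −2.77 in pTV cells, a log2 fold change of 5.44 ± 0.38 (SE). The wild type array of replicate 3 was the lowest of its line, yet far above every pTV array, and the mean without TNFα was 2.11. The other 9 of the 12 largest were Gbp2 (5.37), the gene the array names Gbp4 and the current annotation Gbp3 (5.25), the death receptor Fas (5.18), the protease inhibitor Slpi (5.17), Parp14 (5.12), the pentraxin Ptx3 (5.05), Ifit3 (4.91), Rtp4 (4.77) and Ifit1 (4.72), all as log2 fold changes. Within each slide these 12 differed by 3.87 to 7.43 on the log2 scale.

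Among the genes with higher levels in cells without p65, Dkk2, a secreted modulator of Wnt receptors, differed the most. Its log2 level was −2.78, −2.28 and −2.99 in wild type cells and 0.68, 0.81 and 0.50 in pTV cells. The difference of −3.35 ± 0.26 (SE) had an adjusted p in limma of 2.9e-06 and amounted to 10.2-fold in favour of pTV. Aldh1a3, which makes retinoic acid, followed with −3.32 ± 0.47 (SE) and a wider spread. It stood at −2.18, −2.67 and −1.13 in wild type and at 1.66, 0.49 and 1.83 in pTV cells. The endothelial proteoglycan Esm1 differed by −3.13 and Id4, an inhibitor of basic helix-loop-helix factors, by −3.11, and both were higher on every pTV array than on any wild type array. The remaining 8 were Stmn4 (−2.80), Plekha6 (−2.31), Ctgf (−2.21), the α2A adrenergic receptor Adra2a (−2.16), Fgf18 (−2.15), the BH3-only death gene Pmaip1 (−2.15), the signalling inhibitor Spry4 (−2.14) and the EGF receptor ligand Hbegf (−2.10). Within each slide the 12 differed by −1.82 to −3.84. With normexp, Plekha6, Adra2a and Spry4 were no longer called.

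**Figure D2:**
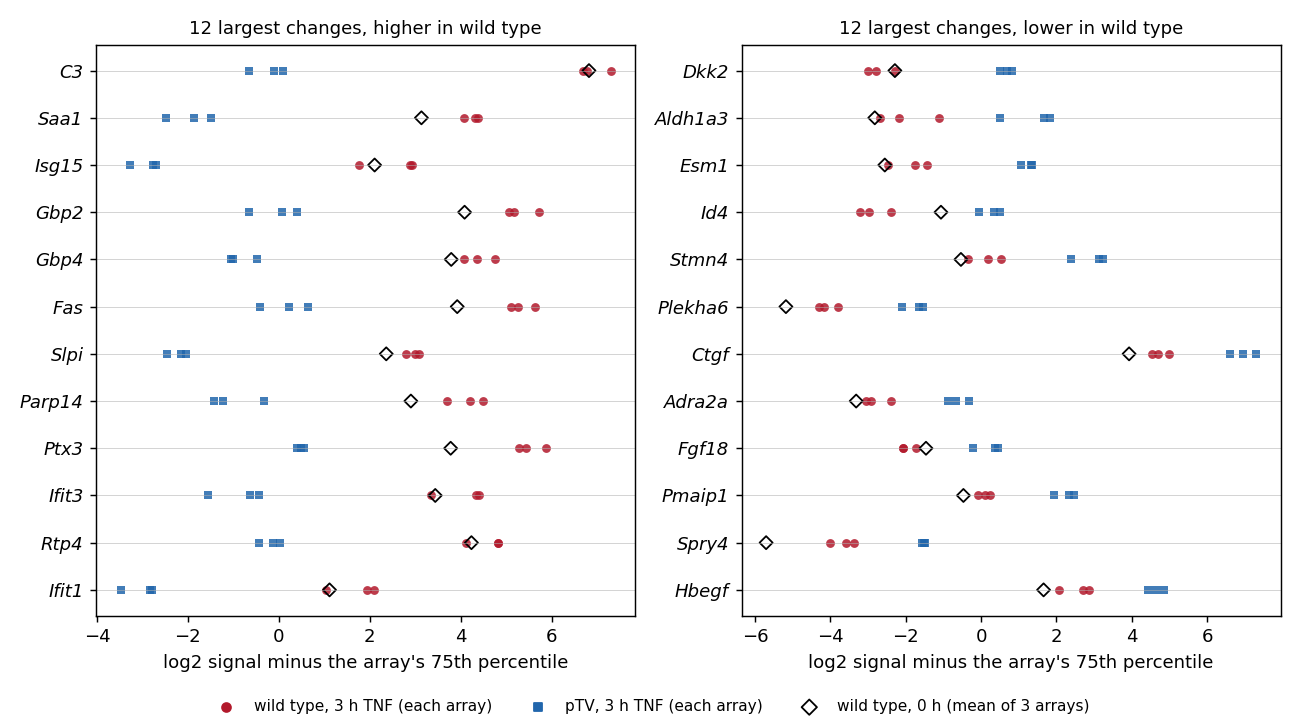
Log2 level on each array of the 12 largest measured differences in each direction, for wild type p65 cells (red circles) and pTV cells (blue squares) after 3 h of TNFα, with the mean of wild type cells at 0 h as an open diamond. Red and blue points do not overlap for any of these probes, and for all but Id4 the diamond lies nearer to the mean of the red points than to that of the blue ones.

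Some genes gave a signal on all wild type arrays and on no pTV array, and the 6 with the largest bounds follow. Saa3, an acute phase protein made outside the liver, was at least 1155-fold higher in wild type cells, with log2 levels of 5.84, 5.26 and 5.14. Ch25h, which makes 25-hydroxycholesterol, was at least 346-fold higher and the leukocyte adhesion molecule Icam1 at least 132-fold. The oligoadenylate synthetase Oas1f followed with at least 105.5-fold, Ccl20 with at least 81.8-fold and the nucleic acid sensor Zbp1 with at least 65.2-fold. In the other direction the bounds were small. Fgf5 was at least 4.1-fold higher in pTV cells, the natriuretic peptide gene Nppb at least 3.67-fold, the steroid dehydrogenase Akr1c18 at least 3.45-fold, the ubiquitin ligase Hecw2 at least 3.21-fold and 1 of 2 probes of Smarca2 at least 2.98-fold. None of these 5 was called with normexp. The Hecw2 call was also lost in a fit of the 6 arrays alone. The Smarca2 call was also lost without wild type replicate 3, without pTV replicate 1 and without pTV replicate 3. The brighter probe of Smarca2 differed by 0.38 in the opposite direction, which did not pass the test (adjusted p in limma 0.41).

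By function, the NF-κB genes themselves come first. Of 10 measured subunits and IKK kinases 2 were higher in wild type cells and none lower, where 4.28% of 12520 gene symbols were higher and 1.65% lower by their brightest probe. Relb was at 4.01, 3.88 and 4.02 in wild type cells and at 2.58, 2.49 and 2.65 in pTV cells, a 2.64-fold difference. The groups did not overlap. Ikbke, an IKK-related kinase of the interferon response, was 3.46-fold higher, a call that normexp did not keep. Nfkb1 (log2 fold change 0.96) and Nfkb2 (0.93), which encode p50 and p52 with their precursors, lay just under the 2-fold limit with adjusted p in limma of 8.4e-06 and 0.00013. The kinase Tbk1 differed by 0.59 and Map3k14, the kinase of the noncanonical pathway, by −0.79. Ikbkg, Ikbkb and Chuk, the 3 parts of the IKK complex, differed by 0.14, 0.02 and −0.08, and did not pass the test. The brighter of the 2 probes of Rela differed by 0.35 (adjusted p in limma 0.21) and the other by 0.61 (adjusted p in limma 0.022), both under the fold limit. At both probes every wild type array was above every pTV array, but pTV cells gave a signal too. Whether the probes lie in the deleted part of the gene was not tested, so they are no clear check of the labels.

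In the list of inhibitors that NF-κB induces to end its own response, 9 of 11 measured genes were higher in wild type cells and no member was lower. The list also counts Tnfaip2 as a TNF-inducible gene, and whether Tnfaip2 acts as such an inhibitor was not tested. Tnfaip2 was at 5.19, 5.01 and 5.07 in wild type and at 0.36, 0.59 and 0.68 in pTV cells, a 23.4-fold difference. Tnfaip3, the ubiquitin-editing enzyme A20, was at 4.45, 4.12 and 4.24 against 0.92, 0.55 and 0.80, an 11.4-fold difference. For both genes the lines were apart by many times the spread within a line. The IκB gene Nfkbia was high in both, at 6.97, 6.87 and 6.77 in wild type and 5.72, 5.69 and 5.88 in pTV cells. It differed by 1.1 ± 0.11 (SE), a 2.15-fold difference. Of its relatives, Nfkbie was 4.99-fold, Nfkbib 2.18-fold and Bcl3 2.52-fold higher, and the A20 partner Tnip1 5.47-fold. Tnip3 and the receptor kinase inhibitor Irak3 were above background on no pTV array and were at least 4.18-fold and at least 2.83-fold higher. The median log2 fold change of the list was 2.13, or 1.5 with those 2 genes at their bound. Nfkbiz differed by 0.54 and Cyld by 0.57, both under the fold limit. With normexp 5 genes of the list were called.

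A κB site is the DNA element that NF-κB dimers bind. Matches to the κB consensus, a palindrome-like motif of 10 bases, were searched on both strands in the 250 bases before the RefSeq start of each gene (build GRCm38.p6). The stretches of the 180 bases before the start of Nfkbia, Cxcl10 and Ccl20 are shown as examples of higher genes with a match, and the capitals mark the κB matches. Each is written 5′ to 3′ on the strand of its gene.
Nfkbia, chr12:55492648-55492827, minus strand: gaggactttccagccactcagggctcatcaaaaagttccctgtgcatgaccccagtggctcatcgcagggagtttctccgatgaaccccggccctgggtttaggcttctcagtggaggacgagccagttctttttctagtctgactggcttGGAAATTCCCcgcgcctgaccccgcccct
Cxcl10, chr5:92348890-92349069, minus strand: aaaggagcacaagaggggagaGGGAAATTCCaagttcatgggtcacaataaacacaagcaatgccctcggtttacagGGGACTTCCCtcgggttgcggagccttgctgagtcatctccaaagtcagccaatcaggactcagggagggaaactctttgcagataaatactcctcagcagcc
Ccl20, chr1:83116586-83116765, plus strand: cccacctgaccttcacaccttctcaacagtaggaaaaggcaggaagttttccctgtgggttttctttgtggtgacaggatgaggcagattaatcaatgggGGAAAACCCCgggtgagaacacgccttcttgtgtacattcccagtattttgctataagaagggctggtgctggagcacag
The match of Nfkbia began 29 bases before the start and that of Ccl20 80 bases before it, and Cxcl10 held matches at 159 and 103 bases before the start. A match describes the letters of the window and not a bound site. Among tested list members with a RefSeq window, 6 of 10 feedback inhibitors, 4 of 10 chemokines and 6 of 15 MHC class I and immunoproteasome genes held a κB match, where 5.57% of 9263 tested genes and 4.46% of 27025 genes in all did. Of the acute phase and complement genes 0 of 11 held one and of the antiviral genes 2 of 25. The windows of Saa3, C3 and Icam1, among the largest differences, held none. Near matches were not counted, so a window without a match can still hold a stretch close to the consensus. That of Icam1 held TGGAAATTCC, which differs in its first base from the match GGGAAATTCC of Cxcl10.

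Chemokines, which draw leukocytes to tissue, were higher in wild type cells at 12 of 17 measured genes and lower at none. The largest bound was that of Ccl20, the ligand of CCR6, whose wild type level of 1.64, 1.66 and 1.49 stood against pTV levels of −6.62, −6.40 and −6.37 that were not above background. Cxcl10, a CXCR3 ligand, was measured on 2 wild type arrays at 4.03 and 3.66, because the spot of the first array was an outlier and was left out. The pTV arrays gave 0.00, −0.31 and 0.14, and the difference of 3.90 ± 0.20 (SE) was 14.9-fold. A second CXCR3 ligand, Cxcl11, was at least 19.1-fold higher. Ccl5 differed by 3.81, Cxcl5 by 4.03, Cxcl16 by 3.28, Ccl3 by 4.77, Ccl9 by 2.36 and Ccl7 by 2.00 on the log2 scale. Ccl3 was above background on 1 of the 3 pTV arrays. Ccl8 was at least 18.6-fold and Ccl4 at least 3.88-fold higher. Ccl2, the main attractant of monocytes, had high levels in both lines, with log2 levels of 8.12, 7.49 and 7.41 against 9.02, 8.62 and 8.62 in wild type cells, a 2.12-fold difference. Cxcl1, an attractant of neutrophils, was at 6.50, 6.59 and 6.33 against 5.03, 5.13 and 5.11. These groups did not overlap, but the difference of 1.38 did not pass the test (adjusted p in limma 0.082). Cx3cl1 (0.87) and Ccl17 (0.93) were under the fold limit, and Cxcl12, a constitutive fibroblast chemokine, differed by −0.32 (adjusted p in limma 0.32). The median of the list was 3.28, or 2.36 with genes at their bound, and 6 of the 12 genes were above background on all 6 arrays.

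Of 14 measured cytokines and colony stimulating factors 7 were higher and 2 lower in wild type cells. Il6 was at 2.67, 2.22 and 2.39 in wild type and at −0.02, −0.82 and 0.03 in pTV cells, a 6.47-fold difference. Il15, a growth factor of natural killer cells, differed by 3.21, the receptor antagonist Il1rn by 2.46, lymphotoxin β (Ltb, above background on 2 pTV arrays) by 2.62, Tslp by 2.01 and the macrophage factor Csf1 by 1.58. Csf3 was at least 4.99-fold higher. Csf2 (0.75) was under the fold limit and Tnfsf11 (1.5) did not pass the test. Both genes that went the other way belong to the family of interleukin 6. Il11 was at −1.09, −1.05 and −0.75 in wild type cells and at 1.42, 0.69 and 1.28 in pTV cells, which was 4.26-fold higher without p65. Clcf1 was 2.06-fold higher without p65, a call that was lost without wild type replicate 2 and without pTV replicate 1. With normexp 3 cytokines were higher and 1 lower.

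Acute phase and complement genes were higher in wild type cells at 12 of 17 measured members, with a median of 3.85. Beside Saa3 and C3 stood Hp (haptoglobin), at 3.21, 2.67 and 2.50 in wild type and −4.37, −4.63 and −4.39 in pTV cells. Its difference of 7.26 on the log2 scale was slightly larger than the 7.14 of C3. Hp was above background on 2 of the 3 pTV arrays. Cfb, factor B of the alternative pathway, was at least 29.8-fold higher, and the log2 difference of Saa1 was 6.21. The first enzymes of the classical pathway were higher too, C1s by 4.59 and C1r by 2.82. Ceruloplasmin (Cp) differed by 3.85 and lipocalin 2 (Lcn2) by 3.95. Saa1 and Saa2 are near-identical in sequence, and their probes may not separate them. Cfi, which degrades C3b, was called lower (−1.66), a call that was lost without wild type replicate 3, in a fit of the 6 arrays alone and with normexp. C2, Cfp, C4b and C1qb were not called. Without TNFα wild type cells had log2 levels of 4.24 (Saa3), 2.77 (Hp), 2.70 (C1s) and 3.35 (Cp), all far above the pTV arrays with TNFα. Cfb stood at −1.25 without TNFα and at 0.46, 0.18 and −0.23 with it.

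Interferon-stimulated antiviral genes were higher in wild type cells at 32 of 36 measured members, and none was lower. All 36 had higher levels on every wild type array than on any pTV array, where 16.2% of all tested probes did. The median log2 fold change was 2.87. Beside Isg15, Parp14, Ifit3, Rtp4 and Ifit1, the largest differences were those of the viral RNA sensor Oas1a (at least 41.0-fold), Oasl2 (log2 fold change 6.67), the ISG15 protease Usp18 (5.92) and Ifi44 (at least 32.8-fold). Oasl2, Usp18 and Irf7 were above background on 2 pTV arrays, and Mx2 and Rsad2 on 1. Rsad2 (viperin) differed by 4.16, Bst2 (tetherin) by 3.85 and Mx2 by 4.51. Factors that turn these genes on were among the higher members. Stat2 was 3.68-fold, Irf9 4.25-fold, Irf7 9.19-fold and Irf1 6.01-fold higher, the last at 5.71, 5.47 and 5.46 against 2.94, 2.99 and 2.95. The sensors Ifih1 and Ddx58 were 6.47-fold and 4.61-fold higher. Adar, Ifit2, Ifi204 and Isg20 differed by 0.65 to 0.94 by their brightest probes and stayed under the fold limit. The brightest probe was taken for each gene, and for 3 of the 36 another probe was called differently. By the probe with the largest change 35 of the 36 were higher, so most of these 4 genes had a probe that was called higher. Of the 32 genes 19 were above background on all 6 arrays.

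The interferon-inducible GTPases, which act on vacuoles of intracellular microbes, were higher at all 12 measured members. Gbp2 was at 5.72, 5.17 and 5.06 in wild type and at 0.41, −0.65 and 0.07 in pTV cells, a 41.5-fold difference. Mpa2l, now named Gbp6, was at least 26.1-fold higher, Iigp1 at least 39.7-fold and Tgtp at least 47.9-fold. The smallest difference was that of Irgm1, 3.75-fold. Members of the family are alike in sequence, so that a probe may read more than 1 of them. In wild type cells without TNFα Gbp2 was at a mean log2 level of 4.08, and Igtp, with an 11.6-fold difference between the lines, at 2.09, where its TNFα arrays gave 3.06, 2.92 and 2.46.

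The interferon-stimulated response element (ISRE), which interferon regulatory factors bind, was searched as its core TTTCNNTTTC on both strands. The 180 bases before the start of Isg15, Ifit1 and Gbp2 are shown, 3 of the largest differences, with the ISRE cores in capitals.
Isg15, chr4:156200819-156200998, minus strand: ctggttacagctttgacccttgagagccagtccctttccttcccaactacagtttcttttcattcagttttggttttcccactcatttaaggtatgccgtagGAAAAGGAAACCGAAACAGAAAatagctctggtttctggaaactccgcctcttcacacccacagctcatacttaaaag
Ifit1, chr19:34640709-34640888, plus strand: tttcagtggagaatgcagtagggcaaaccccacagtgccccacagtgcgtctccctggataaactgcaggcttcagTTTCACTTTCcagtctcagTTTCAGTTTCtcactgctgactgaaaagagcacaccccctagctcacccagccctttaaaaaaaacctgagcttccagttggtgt
Gbp2, chr3:142620483-142620662, plus strand: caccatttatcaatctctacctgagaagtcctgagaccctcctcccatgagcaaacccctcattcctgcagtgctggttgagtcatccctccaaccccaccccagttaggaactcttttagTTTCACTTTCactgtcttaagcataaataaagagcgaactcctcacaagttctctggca
Isg15 held 3 cores that each overlap the next by 4 bases and begin 78, 72 and 66 bases before the start, on the opposite strand. Ifit1 held 2, at 104 and 85 bases, and Gbp2 held 1, at 59 bases. Of the GTPases with a window 7 of 8 held an ISRE core and of the antiviral genes 9 of 25, where 3.22% of the tested genes and 3.46% of all genes did.

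By direction of change, a κB match was found in 13.6% of the 381 higher genes with a window and in 8.76% of the 137 lower genes. The ISRE core was found in 12.9% of the higher and 2.19% of the lower genes (3 genes). The AP-1 motif TGANTCA, which Fos and Jun dimers bind, was found in 12.1% of the higher and 13.1% of the lower genes, against 5.83% of all tested genes and 7.82% of all genes. Cxcl10 and Gbp2 held an AP-1 match beside those in capitals, and the motifs did not overlap there. These shares describe the letters and were not tested. The window of Dkk2, the largest difference among lower genes, is shown for contrast and held none of the 3 motifs.
Dkk2, chr3:132085112-132085291, plus strand: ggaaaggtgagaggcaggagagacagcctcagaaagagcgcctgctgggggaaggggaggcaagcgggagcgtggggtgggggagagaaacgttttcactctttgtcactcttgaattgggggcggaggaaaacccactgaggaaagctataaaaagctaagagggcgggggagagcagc

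**Figure D3:**
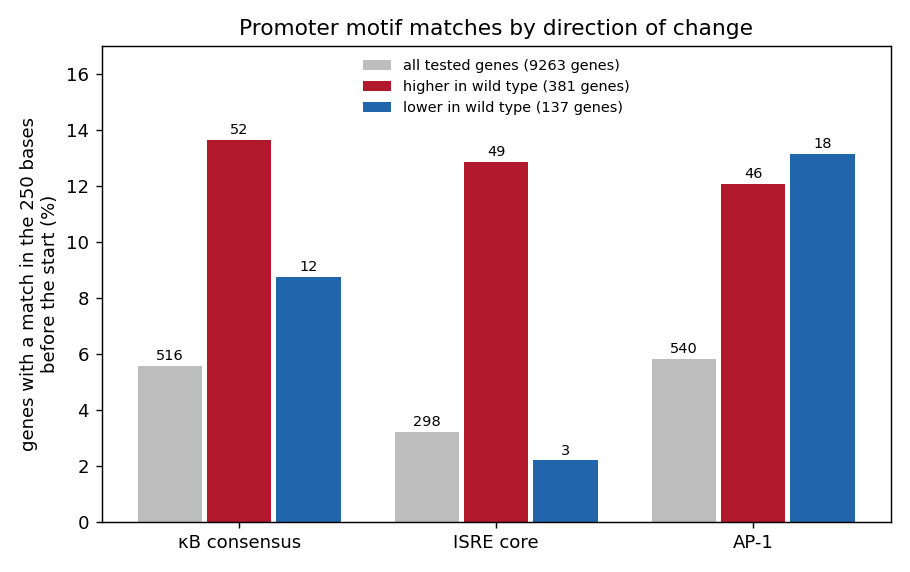
Share of genes with at least 1 match to the κB consensus, the ISRE core or the AP-1 motif in the 250 bases before the RefSeq start, for all 9263 tested genes with a window (grey), the 381 higher (red) and the 137 lower genes (blue); the number over a bar is its count of genes. The κB and ISRE shares are highest among higher genes, and the AP-1 shares of both directions are close to each other.

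Antigen presentation by MHC class I was higher in wild type cells at 19 of 20 measured genes, with a median of 1.84. The class I heavy chain H2-K1 was at 4.84, 4.78 and 4.43 in wild type and 2.19, 1.91 and 2.01 in pTV cells, a 6.26-fold difference. The light chain B2m was 2.22-fold higher. The immunoproteasome subunits Psmb8 (at least 22.7-fold), Psmb9 (12.1-fold, above background on 2 pTV arrays) and Psmb10 (5.22-fold) and the peptide transporters Tap1 (at least 4.60-fold) and Tap2 (9.73-fold) were all higher. Class I heavy chains are near-identical to each other, and their probes may read several of them. H2-Q8, the member that was not called, differed by 0.82. With normexp 12 members were called, and Psmb8, Psmb9 and Tap1 were not among them.

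Survival and death genes changed only in part. Of 30 measured members 9 were higher in wild type cells and none was lower, and the median was 0.40. Fas was at 5.63, 5.10 and 5.25 in wild type cells and at 0.64, −0.42 and 0.23 in pTV cells, a 36.2-fold difference. The inflammatory caspase Casp4 was 7.24-fold, the kinase Ripk2 6.55-fold and the mitochondrial superoxide dismutase Sod2 4.82-fold higher. The caspase inhibitors Birc3 (2.50-fold) and Birc2 (2.47-fold), known survival targets of NF-κB, and the death gene Bid (3.21-fold) were all higher. TNF receptor 2 (Tnfrsf1b) was 3.13-fold higher, whereas the receptor Tnfrsf1a differed by 0.38. Traf1 (0.62), Traf2 (0.42) and Gadd45b (0.72) were under the fold limit, and Cflar (−0.35), Bcl2l1 (−0.11) and Xiap (0.07) did not pass the test. Pmaip1, which is in no list, was 4.45-fold higher in cells without p65, at 2.48, 1.93 and 2.32 against −0.08, 0.11 and 0.24.

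Among pattern recognition genes 7 of 19 were higher. Tlr2 was at 4.74, 4.61 and 4.65 in wild type and at 0.44, 0.73 and 0.97 in pTV cells, a 15.5-fold difference. The lipopolysaccharide-binding protein Lbp was at least 5.56-fold, Nod2 4.92-fold, Nod1 3.50-fold and the adaptor Myd88 2.18-fold higher. Tlr4 and its partners Ly96 and Cd14 differed by 0.00, 0.13 and −0.39 and were not called, while Tlr2 of the same family was. In the list of adhesion molecules 7 of 16 were higher. Vcam1 was at 6.12, 6.17 and 6.28 against 3.69, 3.92 and 4.27, a 4.69-fold difference, and P-selectin (Selp) was 3.28-fold higher. E-selectin (Sele) was at least 4.82-fold higher. Cdh11, the cadherin of fibroblasts, was 2.93-fold higher, and Cd44, Ncam1 and Cdh2 differed by 0.09, −0.06 and −0.31 and were not called. With normexp 3 pattern recognition genes and 4 adhesion genes were called.

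Matrix proteases and their inhibitors gave 9 higher and 1 lower of 29 measured genes. Mmp3 (stromelysin 1) was at 2.94, 2.32 and 2.33 in wild type and −3.94, −4.77 and −3.26 in pTV cells, a difference of 6.52 on the log2 scale, with a signal above background on 2 of the 3 pTV arrays. Mmp10 was above background on 2 pTV arrays as well. The collagenase Mmp13 was at least 16.5-fold higher and Mmp10 differed by 2.63, a call that normexp did not keep. The protease inhibitors Serpinb2 (4.82-fold) and Serpine2 (6.46-fold) were higher too, and with normexp 3 members of the list were higher and Serpine2 was not called. Mmp2, Mmp14, Timp2 and Timp3, which fibroblasts make without stimulation, differed by −0.46 to 0.49 and were not called. The urokinase receptor Plaur went the other way, at 3.22, 3.22 and 3.32 in wild type and 4.66, 4.20 and 4.34 in pTV cells, a 2.21-fold difference in favour of pTV. Plau, the enzyme it binds, differed by −0.85, under the fold limit.

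**Figure D4:**
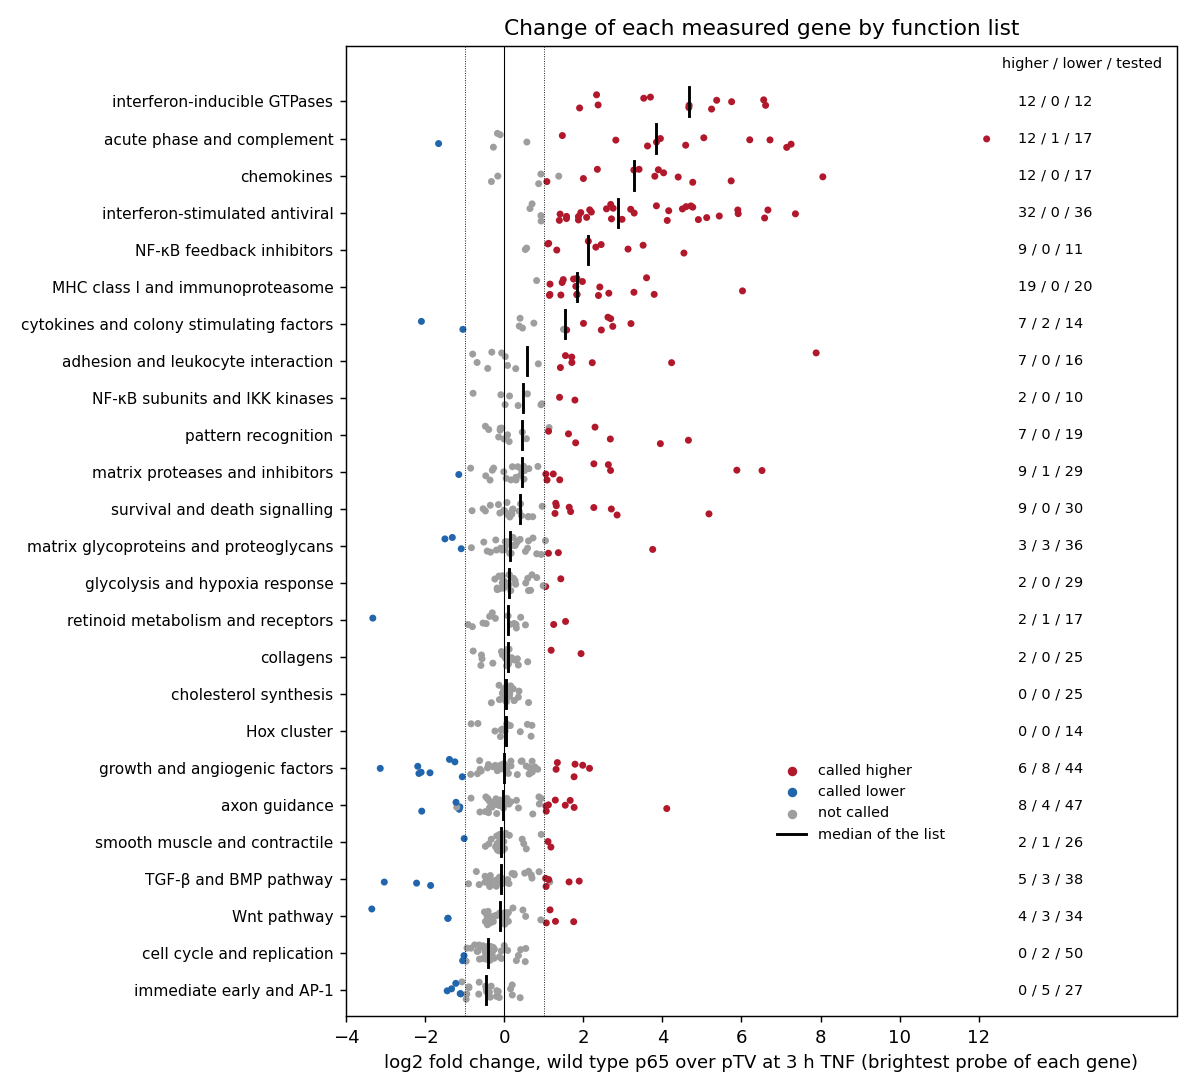
Log2 fold change of wild type p65 over pTV cells for the brightest probe of each measured gene in 25 function lists, ordered by their medians (black bars), with counts of higher, lower and tested genes at the right; dotted lines mark a 2-fold difference. The 7 lists at the top have medians over 1, 3 lower calls lie in these lists, and the list with the most lower calls, 8 of 44, has a median of 0.00.

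The 7 lists with medians over 1 were all lists of inflammatory, interferon or antigen presentation genes. By contrast 23 of 25 collagens, all 25 genes of cholesterol synthesis, all 14 measured Hox genes and 27 of 29 genes of glycolysis and hypoxia response were called in neither direction, with medians of 0.09, 0.05, 0.05 and 0.13. Col5a3 was the most changed collagen, 3.85-fold higher in wild type cells. Each of these lists had 0 to 2 higher calls and no lower call, where 4.28% and 1.65% of all gene symbols were called.

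Genes with higher levels in cells without p65 gathered in no list as densely as the inflammatory genes did. The most were found among growth and angiogenic factors, with 8 lower and 6 higher in wild type cells of 44 measured and a median of 0.00. Hbegf was at 2.08, 2.71 and 2.87 in wild type cells and 4.44, 4.65 and 4.87 in pTV cells, a 4.29-fold difference. A second ligand of the EGF receptor, Areg, was 3.66-fold higher in pTV cells, at −0.55, −0.79 and −0.10 against −2.65, −2.43 and −1.98, whereas Ereg, also such a ligand, differed by 0.85 in the other direction and was not called. Of the fibroblast growth factors, Fgf18 stood at 0.44, −0.22 and 0.38 against −2.08, −2.06 and −1.73, a 4.45-fold difference. Vegfa was 2.61-fold higher without p65 and Angptl2 2.08-fold. The 6 members that were higher in wild type cells were Igfbp3 (4.47-fold), the PDGF receptors Pdgfrb (3.97-fold) and Pdgfra (3.41-fold), Angpt1 (3.47-fold, above background on 2 pTV arrays), Kitl (2.54-fold) and Nrp2 (2.49-fold). With normexp 5 members were lower and 3 higher.

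Immediate early genes and AP-1 subunits, which growth factor and stress signals raise within minutes, were lower in wild type cells at 5 of 27 measured genes and higher at none. Their median was −0.46. By the probe with the largest change, instead of the brightest, 1 gene was higher and 5 were lower. Of the 27 genes 23 had a negative difference, and at 19 every wild type array was under every pTV array, where 18.2% of all tested probes were. Jun was at 1.44, 1.73 and 1.86 in wild type cells and 2.82, 2.87 and 2.99 in pTV cells, a 2.33-fold difference. The phosphatases of the MAP kinases Dusp4 (2.71-fold), Dusp6 (2.51-fold) and Dusp2 (2.14-fold) and the orphan receptor Nr4a1 (2.16-fold) were the others. Without wild type replicate 2 the call of Nr4a1 was lost. Dusp6 was at 3.45, 3.68 and 4.0 against 4.85, 4.97 and 5.30. Fosl1 (−0.96), Atf3 (−0.94), Dusp1 (−0.89) and Dusp10 (−0.89) were just under the fold limit and passed the adjusted p. Junb, Fos and Klf2 were not called. With a limit of 1.8-fold, which the paper used between wild type and mutant cells and not for pTV, 9 were lower. With normexp 2 were lower, Jun and Dusp6 keeping their calls.

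**Figure D5:**
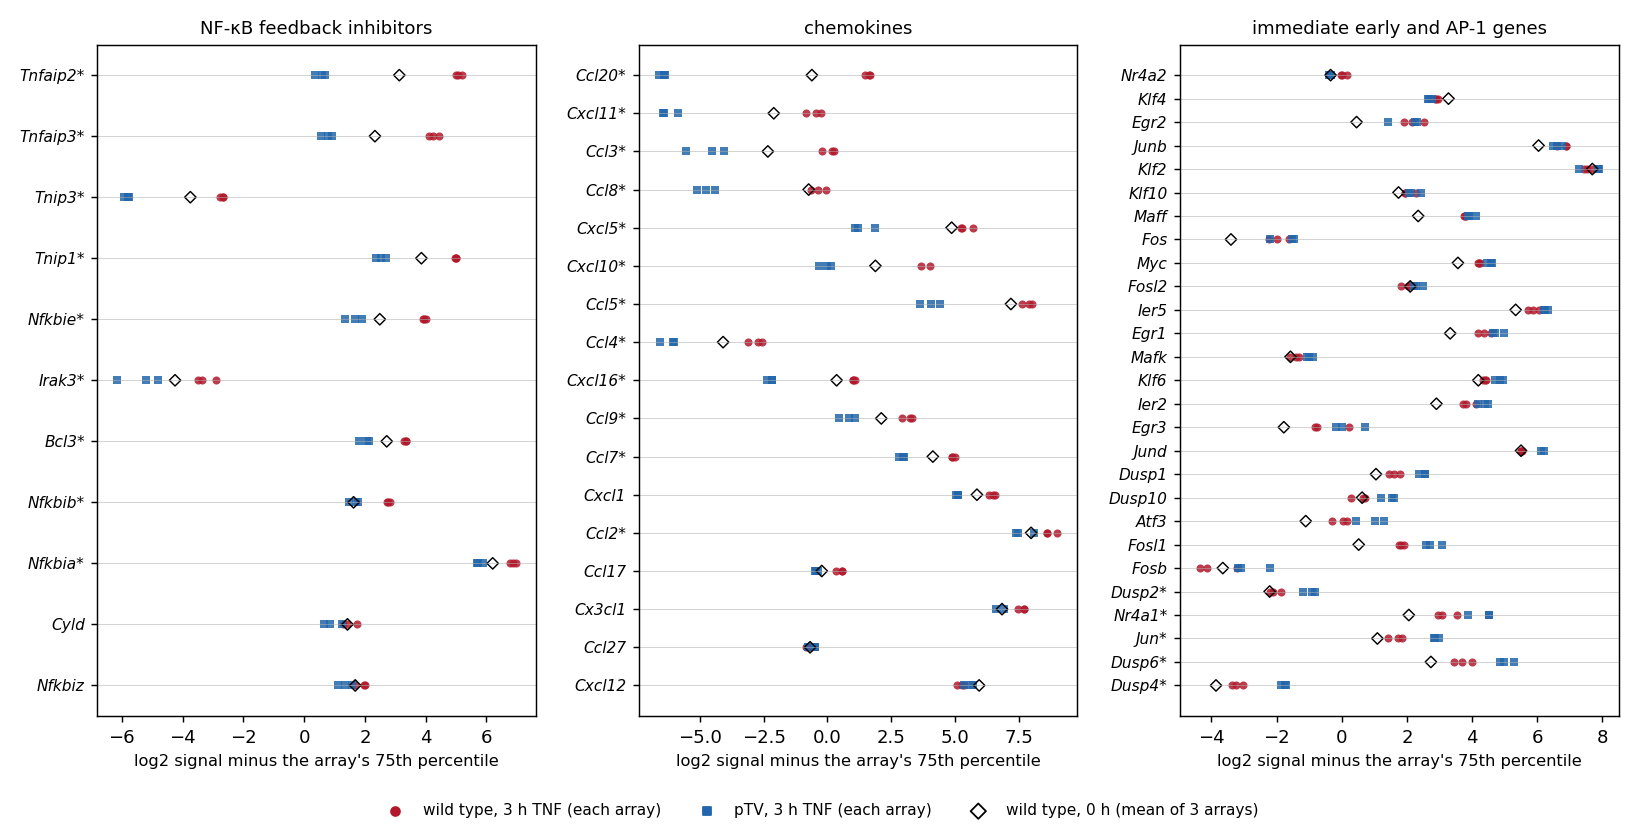
Log2 level on each array of every measured feedback inhibitor (left), chemokine (middle) and immediate early or AP-1 gene (right), for wild type p65 (red circles) and pTV cells (blue squares) after 3 h of TNFα and for wild type cells at 0 h (mean of 3 arrays, open diamonds); a star marks a called gene and genes are ordered by their difference. At the left and in the middle the red points lie to the right of the blue for nearly every gene, and at the right the mean of the blue points is the higher one for 23 of 27 genes.

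Genes of the same signalling that are in no list were looked at after their values were seen. Spry2, an inhibitor of receptor tyrosine kinase signals like Spry4, differed by −1.15 and was called lower by its brighter probe, while its other probe differed by −0.10 and was not called. The factor Etv5, a target of that pathway, differed by −1.15 by the brighter probe, Etv4 by −0.98 and Spry1 by −0.95. The last 2 were under the fold limit, and Etv1, Spred1 and Spred2 differed by −0.38 to 0.07 and were not called.

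Most TGF-β, BMP, Wnt and retinoid genes were called in neither direction, and the few called genes went both ways. The medians of the TGF-β and BMP, Wnt and retinoid lists were −0.09, −0.09 and 0.10. Of 38 measured TGF-β and BMP genes 3 were lower and 5 higher in wild type cells. Of all gene symbols 1.65% were lower and 4.28% higher. Ctgf (now Ccn2), a matricellular protein, was at 4.54, 4.69 and 4.99 in wild type cells and 7.30, 6.60 and 6.96 in pTV cells, a 4.64-fold difference. Inhba, which encodes activin A, was 3.63-fold and Id4 8.17-fold higher without p65 by the brighter of its 2 probes. The activin antagonist Fst was 3.73-fold and the inhibitory Smad6 2.18-fold higher in wild type cells, and with normexp none of the 5 higher calls was left. Cyr61 and Ankrd1, chosen after their values were seen because YAP and TEAD activate them together with Ctgf, differed by −1.07 and −1.44 and were called lower in wild type cells. In the Wnt list 3 of 34 were lower, Dkk2, Dkk3 (2.69-fold) and Wnt11 (2.67-fold), and 4 higher, among them Wnt10a (3.38-fold) and the receptor Fzd1 (2.46-fold). With normexp 2 Wnt genes were higher, Rspo2 and Axin2 were not called, and Wnt11 lost its lower call. Of 17 retinoid genes Aldh1a3 was the single lower one, and the binding proteins Crabp1 (−0.80) and Crabp2 (−0.91) were under the fold limit. The retinoid dehydrogenases Dhrs3 and Dhrs9 were called higher near background, and neither call was kept with normexp.

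Axon guidance genes, which fibroblasts use as adhesion and repulsion cues, were higher at 8 and lower at 4 of 47 measured members. Robo2 was at least 7.60-fold higher in wild type cells, Robo1 2.92-fold and Ntn1 3.41-fold. Sema7a was at 1.29, 1.05 and 1.59 in wild type and at 3.76, 3.00 and 3.43 in pTV cells, a 4.24-fold difference, and Epha2 (2.20-fold), Efnb2 (2.17-fold) and Sema4f (2.32-fold) were higher in pTV cells as well. With normexp 1 member was higher and 2 were lower, and the calls of Robo2, Robo1, Epha2 and Sema4f were lost. Without pTV replicate 1 the calls of Efnb2 and Sema4f were lost, which left 2 lower, and that of Epha2 was lost without wild type replicate 1. Matrix glycoproteins gave 3 of each direction of 36, with Efemp1 (13.5-fold, above background on 2 pTV arrays) and Nid1 (2.59-fold) higher and the cartilage proteoglycan Acan (2.82-fold), Thbs2 (2.48-fold) and Fbn2 (2.12-fold) higher without p65. With normexp 1 glycoprotein was higher, and the calls of Nid1 and Acan were lost. Of 26 contractile genes Acta1 and Actc1 were higher by 2.27-fold and 2.16-fold, and Smtn was 2.01-fold higher without p65. The Smtn call was lost without wild type replicate 1, without pTV replicate 3 and with normexp. Neither actin call was kept with normexp, and that of Actc1 was also lost without wild type replicate 1.

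Cell cycle and replication genes were nearly all measured at slightly lower levels in wild type cells. The median of 50 genes was −0.40, 43 differences were negative, and at 27 genes the arrays did not overlap in that direction, against 18.2% of all tested probes. Only Ccne2 (−1.05) and Ccnd1 (−1.01), both cyclins of the G1 phase, passed the 2-fold limit, and each lost its call without wild type replicate 1, without pTV replicate 2 and with normexp. Ccnd1 was at 1.84, 2.25 and 2.14 in wild type cells and 3.07, 3.18 and 3.02 in pTV cells. Rrm2 (−0.94), Cdc6 (−0.96) and Ccne1 (−0.84) were next.

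The cell type of the label was checked by markers. Of 10 fibroblast markers 9 were measured, and Col1a1, Col1a2, Col3a1, Vim and S100a4 were high in both lines, with log2 levels of 4.63 to 8.79 on all 6 arrays, and differed by −0.21 to 0.26. Pdgfrb and Pdgfra were higher in wild type cells, as given above, and so was decorin (Dcn, 2.17-fold), whereas Thy1 was 2.29-fold higher in pTV cells, at 1.99, 1.90 and 1.84 against 0.80, 0.80 and 0.55. Markers of other cells were scarce. Of 7 leukocyte markers 2 were tested, Cd68 (−0.43) and Csf1r (−0.56), neither called, and the defining markers Ptprc, Itgam and Emr1 failed the filter on dim probes in every group. None of 5 endothelial markers was tested. Of 5 epithelial markers 3 were tested, of which Krt18 was lower in wild type cells (−2.53, above background on 1 wild type array) and Krt8 (−0.41) and Krt14 (1.01) were not called. Fabp4, a fatty acid carrier of adipocytes, was 2.12-fold higher in wild type cells and Pparg differed by −0.62. The calls of Fabp4, Krt18 and Dcn were lost with normexp, those of Fabp4 and Dcn also without pTV replicate 2, and that of Fabp4 also without wild type replicate 1. Myod1 was at 1.09 on the first pTV array and between −4.33 and −3.05 on the other 5, and was not called. The part of these differences between the populations in the other results was not tested.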

How the data were processed

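Labelled RNA of each culture was hybridised to 1 one-colour Agilent mouse array. The authors deposited the scanner output, with a background-corrected intensity per spot, and a table of the same intensities times a factor per array. The output was made with Feature Extraction 9.1 per the submitters' processing notes. The headers gave 9.1.1.1 for the 6 compared arrays and 9.1.3.1 for the K314/315R arrays, which were also in the fit. Here log2 of the processed intensity minus that of the 75th percentile of each array was averaged per probe, without control spots and outlier spots, and 43379 spots an array gave 41174 probes. Tested were the probes that all arrays of 1 or more groups measured well above background, in limma 3.58.1 (R 4.3.3), 1 fit of all 14 arrays, two-sided, with no block. The intensities and the number of arrays limit the precision. Over the 6 arrays, 53.1 to 57.7% of spots were well above background.

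A gene stands for its brightest probe. Genes were named if they were among the 12 largest changes of each direction on probes above background on all 6 arrays, the 6 largest bounds, up to 4 calls of each list and direction, the NF-κB subunits and the markers, and a few fixed names (Rela, Mmp10, Mmp13, Cfb, Mpa2l, Cxcl10). Other list members named in the text were chosen after their values were seen. Some list members that the counts include are not reported here. The members and lists were chosen with earlier results of these data known. For a probe not above background in a line, the bound sets the mean of the other line against the higher of the array's lowest signal above background and the probe's own. The replicate number marks the slide: deviations of the same number correlated between wild type and pTV with r of 0.613, 0.400 and 0.463, and those of other numbers with −0.510 to 0.0766. Of the accessions 22951 matched the RefSeq table, 5141 of them under another current symbol. The scripts were tested on simulated data. Alternatives were normexp (offset 50), quantile normalization, the deposited table, other filters, a fit of 6 arrays, replicate and slide blocks, a 1.8-fold limit, and leaving out each array.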

Additional observations from a re-analysis of the deposited data

How the results depend on the processing

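Normexp background correction called 260 probes higher and 66 lower, and the filter to probes above background on all 6 arrays called 481 higher. With normexp the median log2 fold change of the called probes moved from 1.8 to 1.06 for higher and from −1.30 to −0.54 for lower ones, and all 795 higher and 321 of the 323 lower probes kept their sign. Of the 535 higher calls lost, 358 had a fold of 2 or less with normexp and the other 177 a larger fold with an adjusted p of 0.05 or more, and 31 of the 535 had an adjusted p in limma under 0.05. The replicate block, with the slide number pairing the lines, called 807 higher (794 of them shared with the fit without it) and 333 lower (323 shared) and changed no call of a named gene. Leaving out 1 array at a time gave 735 to 831 higher and 273 to 341 lower. Of 129 named gene results, normexp lost the call of 52, the fit of 6 arrays of 4 and the test without a dim filter of 1 (Dhrs3), and leaving out 1 array lost 2 to 8. No result reversed. Quantile normalization, the deposited table and the slide block lost none. Signal over background limits the dim probes: 199 higher and 43 lower probes have a bound only.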

Other observations

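Genes in no list of the report, chosen after their values were seen, are given as values. Xist, the RNA that coats the inactive X chromosome, had log2 levels of −2.14, −2.25 and −2.54 in wild type cells and −6.60, −6.65 and −6.95 in pTV cells, where neither of its 2 probes was above background on any array. It was at least 5.46-fold higher in wild type cells by this probe (adjusted p in limma 4.2e-08) and at least 2.03-fold by the other. In wild type cells without TNFα its mean was −2.22. Of 12 probes of Y-linked genes 1, of Zfy1, was tested, and it differed by −0.10 and was not called.

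Imprinted genes of the Dlk1-Dio3 region differed in both directions. Dlk1 was at 3.00, 2.89 and 2.98 in wild type and at 4.30, 4.13 and 4.22 in pTV cells, a difference of −1.26 (adjusted p in limma 1.5e-05). Gtl2 differed by −1.25, Rian by −1.23 and Mirg by −1.40. Dio3 differed by 1.81 in the other direction (adjusted p in limma 0.0018). Outside that region Peg12 differed by −1.25, and Phlda2, above background on no wild type array, was at least 1.73-fold higher in pTV cells. What these differences between the lines share with the other results was not tested.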
